A study of Homo sapiens with 12 samples.

Results

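HERVK is an endogenous retrovirus of class II, the betaretrovirus-like class, and is 1 of the 45 repeat elements whose RNA was counted by strand in THP-1 cells. It was taken as the row of that name in both count tables, with its plus and minus columns kept apart, so it gave 2 of the 90 strand features, both of them abundant enough to be among the 70 tested. THP-1 is an established human cell line derived from an acute monocytic leukaemia. The cells had been transduced with SETDB1 sgRNA 9 or a non-targeting sgRNA (single guide RNAs of the CRISPR system), placed under puromycin, and harvested at day 7 or day 4. The 4 groups, SETDB1 sgRNA 9 and non-targeting at day 7 and the same at day 4, hold 3 libraries apiece. All groups share the transduction, the selection and the line. Groups follow the sample titles, which name sgRNA 9 throughout, while the design text also names an sgRNA 6. The titles do not say whether replicates were separate cultures, so p-values measure the spread between these libraries, which may be technical.

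Endogenous retroviruses are remnants of germline infections, built as an internal part with gag, pro, pol and env flanked by long terminal repeats that hold the promoter. HERVK groups the most recently integrated human members, some of which still carry open reading frames, and is named for the lysine tRNA that primes its reverse transcription. SETDB1 is a histone methyltransferase that places trimethylation on lysine 9 of histone H3, recruited to repeats by KAP1 and zinc finger proteins, and is known for silencing endogenous retroviruses. The study measured transcription of transposable elements by strand in cells given a SETDB1 sgRNA, and HERVK is the class II element in that measurement. The sources used here do not say which column is sense to HERVK. The tables hold no other class II model and none of the LTR5 repeats that flank HERVK, and SETDB1 itself and monocyte marker genes are not among the tabulated elements, so these were not analysed here.

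Library depth enters as the sum of the table, which ran between 27388 and 58916 counts per library. HERVK held between 115 and 423 counts per library on both strands together. Counting error alone gives a coefficient of variation of 10.9% to 22.4% per library for the plus strand and 5.43% to 11.1% for the minus strand. Levels are given in CPM, counts scaled to a common total of these 45 elements after TMM scaling, so each change is measured against the other tabulated elements and not against all RNA. Fewer expressing cells and less RNA per cell cannot be told apart in such bulk libraries. No 2 libraries of a group agreed within sampling noise (the ratio of chi-square to its degrees of freedom was at least 1.75), and all 12 were used.

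In raw counts, HERVK minus strand gave 194, 339 and 286 counts in SETDB1 sgRNA 9 cells at day 7, against 178, 125 and 112 counts in non-targeting cells. The plus strand gave 54, 84 and 78 counts in SETDB1 sgRNA 9 cells and 35, 24 and 20 counts in non-targeting cells at that day. Every SETDB1 library of day 7 lay above every non-targeting one on both strands. At day 4 the minus strand gave 132, 133 and 165 counts with SETDB1 sgRNA 9, against 115, 119 and 81 counts with the non-targeting sgRNA. The plus strand gave 46, 42 and 49 counts with SETDB1 sgRNA 9 and 26, 24 and 34 counts with the non-targeting sgRNA. These raw counts did not overlap between the arms either, but the whole table was also larger in SETDB1 cells. The table totals averaged 1.43 times those of the non-targeting cells at day 7 and 1.65 times at day 4, against ratios of 2.10 and 1.42 for HERVK. The HERVK ratio was thus above that of the table at day 7 and below it at day 4.

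The share of HERVK in the table gives the same contrast without a model. It was 0.644%, 0.739% and 0.674% in SETDB1 sgRNA 9 cells at day 7, against 0.502%, 0.431% and 0.482% in non-targeting cells. The 3 SETDB1 libraries were all higher, with means of 0.686% ± 0.049 and 0.472% ± 0.036 in SETDB1 and non-targeting cells (SD, n = 3 each; exact permutation test, two-sided p = 0.1, which is the lowest value that 3 against 3 libraries can give). At day 4 the share was 0.378%, 0.381% and 0.363% in SETDB1 sgRNA 9 cells, against 0.400%, 0.497% and 0.415% in non-targeting cells. All 3 SETDB1 libraries lay below the non-targeting ones, with means of 0.374% ± 0.010 and 0.437% ± 0.052 (SD, n = 3 each; two-sided exact permutation p = 0.1). Leaving L1P1_orf2, the most abundant element, out of the table changed that p to 0.6 at day 4 and left it at 0.1 at day 7. How many other elements separated the arms by their share of the table was not counted. Among the 70 strand features in CPM, the arms did not overlap in 55.7% at day 7 and 25.7% at day 4, in either direction.

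HERVK RNA was called higher on both strands at day 7 in the cells with SETDB1 sgRNA 9, with a plus strand call that held in every setting tried and a minus strand call that did not. The plus strand measured 1332, 1406 and 1457 CPM in SETDB1 sgRNA 9 cells, against 903, 707 and 709 CPM in non-targeting cells. The SETDB1 libraries lay close together and wholly above the others. The change was 1.79-fold, or 0.84 ± 0.21 on the log2 scale (SE; 95% interval 0.42 to 1.27; edgeR quasi-likelihood test with Benjamini-Hochberg adjustment, adjusted p = 0.00126). The minus strand measured 4786, 5673 and 5341 CPM with SETDB1 sgRNA 9, against 4590, 3680 and 3973 CPM with the non-targeting sgRNA. The groups did not overlap, though the lowest SETDB1 and the highest non-targeting library were close. The change was 1.29-fold, or 0.37 ± 0.15 on the log2 scale (SE; 95% interval 0.07 to 0.67; edgeR adjusted p = 0.0321). Over the table, 21 of 70 features (30.0%) were called higher in this comparison and 18 (25.7%) lower, or 37 higher and 1 lower in unscaled counts. The higher calls numbered 11 with no filter or with the day 7 libraries alone, 14 with the DESeq2 test, 12 without non-targeting day 4 replicate 2 and 10 without SETDB1 sgRNA 9 day 7 replicate 2, with 18 to 20 lower calls beside them. The arms did not overlap in 39 features (55.7%), of which 22 (31.4%) were higher, so a call at day 7 is common among these elements. HERVK plus strand ranked 10 and HERVK minus strand 27 of 70 by log2 change, beside a median of 0.16 over all features.

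The plus strand call at day 7 held in each of the 8 other settings and without each of the 12 libraries, with log2 changes of 0.62 to 1.45, the highest in unscaled counts. The minus strand call did not. Its change was 0.28 with DESeq2 size factors (adjusted p = 0.118), 0.33 with L1P1_orf2 left out, 0.19 with no filter and 0.15 when only the day 7 libraries were fitted (adjusted p = 0.406), while it was 0.98 in unscaled counts. It was also lost without SETDB1 sgRNA 9 day 7 replicate 2 (0.24) or replicate 3 (0.36), non-targeting day 7 replicate 2 (0.31) or replicate 3 (0.35), or non-targeting day 4 replicate 2 (0.24). The last is outside this comparison and enters through the common dispersion, the scaling and the feature filter, with 72 features tested without it.

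**Figure D1:**
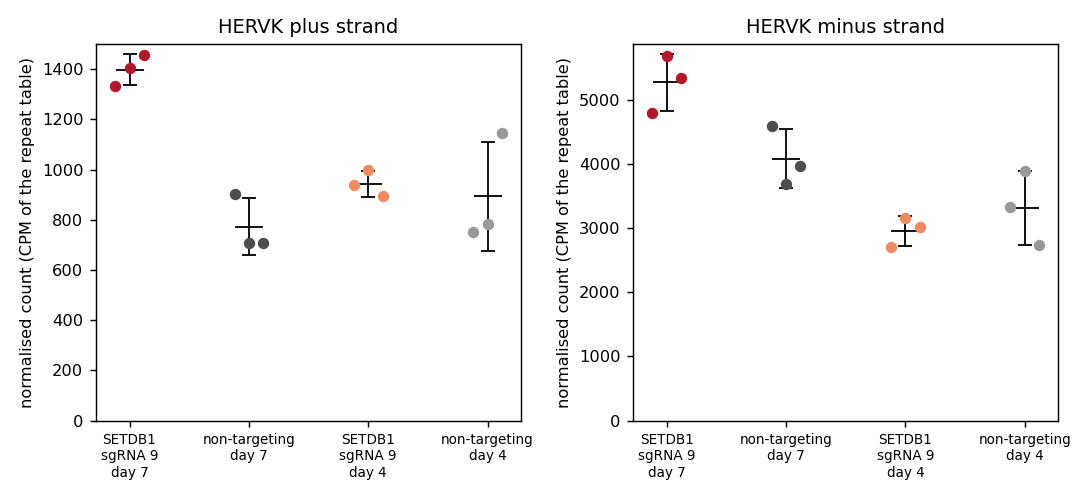
Normalised HERVK counts in CPM of the repeat table (vertical axes, from 0) for the plus strand (left) and the minus strand (right) in SETDB1 sgRNA 9 and non-targeting cells at day 7 and day 4. Points are libraries, and bars are the mean ± SD of 3; the 3 SETDB1 libraries of day 7 lie above all others on each strand, with plus strand values of 1332 to 1457 CPM.

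At day 4 neither strand of HERVK passed. The plus strand measured 940, 998 and 893 CPM in SETDB1 sgRNA 9 cells, against 751, 784 and 1145 CPM in non-targeting cells. The highest value was a non-targeting library, replicate 3, and the groups overlapped. The log2 change was 0.08 ± 0.22 (SE; 95% interval -0.36 to 0.53; edgeR adjusted p = 0.883). The minus strand measured 2697, 3161 and 3008 CPM with SETDB1 sgRNA 9, against 3322, 3889 and 2728 CPM with the non-targeting sgRNA. Here too the groups overlapped, with a log2 change of -0.17 ± 0.16 (SE; 95% interval -0.49 to 0.15; edgeR adjusted p = 0.48). These intervals leave room for a rise of the plus strand of about the size of the minus strand's change at day 7. Of the 70 features, 11 (15.7%) were called higher and 6 (8.57%) lower at this day, or 35 and 0 in unscaled counts and 8 and 9 with table totals. The direction of HERVK depended on the scaling: in unscaled counts the plus strand changed by 0.70 (adjusted p = 0.0421) and the minus strand by 0.45 (adjusted p = 0.0962), and with table totals the plus strand changed by -0.03. The unscaled values stand beside a median of 0.65 over all features, so the plus strand lay near that median and the minus strand below it.

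The effect of SETDB1 sgRNA 9 on HERVK was larger at day 7 than at day 4 by 0.76 ± 0.31 for plus and 0.54 ± 0.22 for minus strand counts (log2, SE), but neither difference passed adjustment. The 95% intervals were 0.13 to 1.38 and 0.10 to 0.97, the unadjusted p-values 0.0188 and 0.0183, and the adjusted p-value 0.121 for each (edgeR interaction test). Of 70 features, 4 (5.71%) were called in this test, 2 higher and 2 lower. The split was 7 higher and 2 lower with table totals, under which HERVK passed on its plus (0.96, adjusted p = 0.0356) and minus strands (0.73, adjusted p = 0.0312), and 2 higher and 6 lower with DESeq2 size factors.

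**Figure D2:**
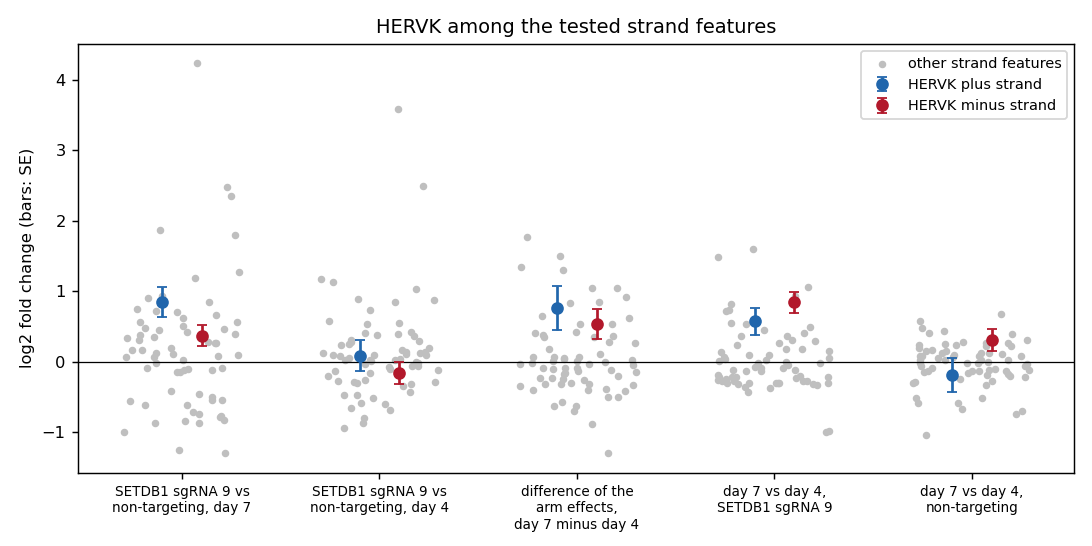
Log2 fold changes (vertical axis) of HERVK plus strand (blue) and minus strand (red), with SE bars, in the 5 comparisons, over the other tested strand features (grey points). At day 7 the plus strand stands at 0.84 and the minus strand at 0.37 against non-targeting cells, and at day 4 both lie near 0.

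Within the SETDB1 sgRNA 9 cells, HERVK was called higher at day 7 than at day 4 on both strands, and only the minus strand call held in every setting tried. The minus strand averaged 5267 ± 448 CPM at day 7 and 2956 ± 237 CPM at day 4 (SD, n = 3 each), with every day 7 library above every day 4 one. This was a 1.79-fold change, 0.84 ± 0.15 on the log2 scale (SE; 95% interval 0.54 to 1.14; edgeR adjusted p = 2.98e-05). It passed in all 8 other settings and without each single library, with changes of 0.67 to 0.94. The plus strand averaged 1398 ± 63 CPM at day 7 and 944 ± 53 CPM at day 4 (SD, n = 3 each), again without overlap. Its log2 change was 0.57 ± 0.19 (SE; 95% interval 0.19 to 0.96; edgeR adjusted p = 0.0391). Of 70 features 8 (11.4%) were called higher and 1 (1.43%) lower in this comparison, 12.9% in all, and HERVK took 2 of the 8. The split was 6 higher and 5 lower with DESeq2 size factors, 6 and 7 with the DESeq2 test, and 7 and 17 without non-targeting day 4 replicate 2. The days did not overlap, with day 7 higher, in 14 of 70 features (20.0%). The minus strand ranked 5 and the plus strand 9 by log2 change. The plus strand call did not pass with DESeq2 size factors (0.52, adjusted p = 0.0541), the DESeq2 test (0.52) or unscaled counts (0.66), nor without any single one of the 6 SETDB1 sgRNA 9 libraries or non-targeting day 4 replicate 2, with changes of 0.40 to 0.61. The days were deposited as separate tables of raw counts, so day and table cannot be told apart.

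In the non-targeting cells no call was made on HERVK between the days. The minus strand averaged 4081 ± 464 CPM at day 7 and 3313 ± 580 CPM at day 4 (SD, n = 3 each), a log2 change of 0.30 ± 0.16 (SE; 95% interval -0.02 to 0.62; edgeR adjusted p = 0.373). The plus strand averaged 773 ± 112 CPM at day 7 and 894 ± 219 CPM at day 4 (SD, n = 3 each), a log2 change of -0.19 ± 0.24 (SE; 95% interval -0.68 to 0.30; edgeR adjusted p = 0.843). Both pairs of groups overlapped. Called in this comparison were 2 features (2.86%) higher and 2 (2.86%) lower of 70, or 5 and 0 with L1P1_orf2 left out, 1 and 2 with table totals and 0 and 0 in unscaled counts, where 6 had an unadjusted p under 0.05 in edgeR. The difference between the 2 time courses is the interaction given above, which did not pass.

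Ordered by mean level, the strands shared the highest group and differed in the order below it. On the plus strand SETDB1 sgRNA 9 cells at day 7 stood highest, followed by SETDB1 sgRNA 9 cells at day 4, non-targeting cells at day 4 and non-targeting cells at day 7. SETDB1 sgRNA 9 cells at day 7 were above SETDB1 sgRNA 9 cells at day 4 in the test given above, while the lower neighbours did not pass with TMM scaling (the arms at day 4 did in unscaled counts). On the minus strand SETDB1 sgRNA 9 cells at day 7 were followed by non-targeting cells at day 7, non-targeting cells at day 4 and SETDB1 sgRNA 9 cells at day 4. The 2 lower neighbouring pairs did not pass with TMM scaling. Over the 12 libraries the log2 levels of the strands correlated with Pearson's r of 0.47 and Spearman's rho of 0.34, a description over libraries that share their scaling and fall into 4 groups.

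With both strands summed before the fit, the change of HERVK at day 7 was 0.29 ± 0.14 on the log2 scale (SE; 95% interval 0.00 to 0.59; edgeR adjusted p = 0.0913 over 42 elements). It did not pass, in a comparison where 7 of 42 elements (16.7%) were called higher and 21 (50.0%) in either direction. TMM factors were computed anew over the summed elements. With the factors of the strand features, the strands together averaged 6665 ± 494 CPM in SETDB1 sgRNA 9 and 4854 ± 572 CPM in non-targeting cells (SD, n = 3 each). That ratio of 1.37 was not tested. The fitted change depended on the scaling. It was 0.54 with table totals (edgeR adjusted p = 0.00253) and 0.44 with L1P1_orf2 left out (adjusted p = 0.00769). It was 0.38 when only day 7 libraries were fitted (adjusted p = 0.0331) and 1.07 in unscaled counts. All of these passed. It also passed without non-targeting day 7 replicate 1 (0.53), non-targeting day 4 replicate 2 (0.39) or SETDB1 sgRNA 9 day 4 replicate 1 (0.33). At day 4 the summed change was -0.23 ± 0.15 (SE; 95% interval -0.54 to 0.07; edgeR adjusted p = 0.219), where 6 of 42 elements (14.3%) were called higher and 31.0% in either direction. It was 0.51 in unscaled counts and 0.00 without non-targeting day 4 replicate 2. Day 7 was higher than day 4 in SETDB1 sgRNA 9 cells by 0.64 ± 0.14 (SE; edgeR adjusted p = 0.00226), against 6 of 42 elements (14.3%) called higher, and this passed in every other setting and without each library (0.51 to 0.88). In non-targeting cells the summed change between the days was 0.12 ± 0.15 (SE; edgeR adjusted p = 0.765), and the difference of the arm effects was 0.53 ± 0.20 (SE; edgeR adjusted p = 0.0643; 7.14% of elements called higher; 0.76 and adjusted p = 0.01 with table totals).

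Most HERVK counts lay on the minus strand in every library. The minus strand held 78.2%, 80.1% and 78.6% of HERVK counts in SETDB1 sgRNA 9 cells at day 7, against 83.6%, 83.9% and 84.8% in non-targeting cells. The arms did not overlap, with means of 79.0% ± 1.0 and 84.1% ± 0.7 in SETDB1 and non-targeting cells (SD, n = 3 each; exact permutation test, two-sided p = 0.1, the lowest possible here). The difference in the log2 odds of minus over plus was -0.48 ± 0.25 (SE; 95% interval -0.97 to 0.02; edgeR strand test, adjusted p = 0.127 over 41 elements). This did not pass, in a comparison where 12 of 41 elements (29.3%) did, and the median over elements was -0.42. The minus strand share of the whole table was also lower, at 69.9% ± 1.4 in SETDB1 and 74.6% ± 0.7 in non-targeting cells (SD, n = 3 each), again without overlap. How many single elements separated the arms in this share was not counted. The difference of HERVK was thus close to the median over elements.

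At day 4 the minus strand share of HERVK was 74.2%, 76.0% and 77.1% in SETDB1 sgRNA 9 cells, against 81.6%, 83.2% and 70.4% in non-targeting cells. Non-targeting replicate 3 was the lowest of the 12 libraries, with a 95% Wilson interval of 61.5% to 78.0% that covers counting error only, and the arms overlapped. The log2 odds differed by -0.25 ± 0.27 (SE; edgeR adjusted p = 0.596), where 7 of 41 elements (17.1%) passed. The change of the odds between the days was 0.27 ± 0.23 in SETDB1 sgRNA 9 cells (edgeR adjusted p = 0.452; 19.5% of elements passed) and 0.50 ± 0.29 in non-targeting cells (edgeR adjusted p = 0.357; 7.32% passed). The difference of the arm effects was -0.23 ± 0.36 (SE; edgeR adjusted p = 0.839; 4.88% of elements passed), and 0.10 without non-targeting day 4 replicate 3.

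**Figure D3:**
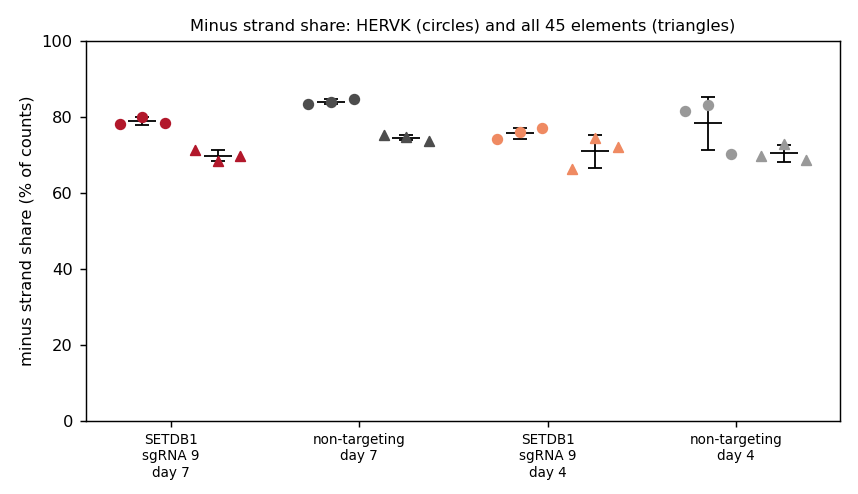
Share of counts on the minus strand in percent (vertical axis, 0 to 100) for HERVK (circles) and for all 45 elements together (triangles) in the 4 groups. Points are libraries, and bars are the mean ± SD of 3; at day 7 HERVK stands at 79.0% in SETDB1 sgRNA 9 and 84.1% in non-targeting cells, above the table's 69.9% and 74.6%.

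Next to HERVK, the tables hold 6 other internal models of endogenous retroviruses, with 10 of their 12 strand features tested. HERV3, HERVP71A, HERV-Fc1, HUERS-P3b and LTR23-int belong to the gammaretrovirus-like class I, and HERVL18 to the spumavirus-like class III. At day 7, 4 of the 10 features were called higher and 3 lower, with a median log2 change of 0.36, beside 30.0% and 25.7% called and a median of 0.16 over all features. HERV3 minus strand averaged 36427 ± 4468 CPM in SETDB1 sgRNA 9 cells and 7157 ± 228 CPM in non-targeting cells, and HERVL18 plus strand averaged 333 ± 14 and 86.3 ± 37.4 CPM (SD, n = 3 each). The HERVL18 values rest on 2 to 19 counts per library. Their log2 changes were 2.35 ± 0.15 and 1.86 ± 0.49 (SE). HERV-Fc1 plus strand (0.57 ± 0.20) and HERVP71A minus strand (0.33 ± 0.14) had changes between or near those of the HERVK strands. HUERS-P3b was lower on its plus (-0.78 ± 0.15) and minus strands (-0.84 ± 0.14), as was LTR23-int minus strand (-0.83 ± 0.21; log2, SE). The 3 falls did not pass in unscaled counts (-0.16, -0.24 and -0.23), where the median over all features was 0.76 and all 3 lay below it. The HERV-Fc1 call was lost with the DESeq2 test, with no filter, when only day 7 libraries were fitted and without 3 of the single libraries. The HERVP71A call was lost in 5 of the 8 other settings and without 6 of the libraries.

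At day 4, 1 of the 10 features was called higher, HERV3 minus strand (0.84 ± 0.15), and 2 lower, HUERS-P3b plus strand (-0.69 ± 0.15) and minus strand (-0.59 ± 0.14; log2, SE), with a median of 0.04. Over all features 15.7% were called higher and 8.57% lower at this day, also with a median of 0.04. HUERS-P3b minus strand stood at 0.03 in unscaled counts, below their median of 0.65 over all features. The arm effect of HERV3 minus strand differed between the days (1.504 ± 0.21, edgeR adjusted p = 1.76e-06), and that of HERV-Fc1 plus strand lay just short of the threshold (0.85 ± 0.27, edgeR adjusted p = 0.0509). In that test 2.86% of all features were called higher. Between the days, HERV3 minus strand (1.49 ± 0.14) and HERVP71A minus strand (0.74 ± 0.14) were higher at day 7 in SETDB1 sgRNA 9 cells, as the HERVK strands were. These are 2 of the 10 features, beside 11.4% of all features called higher there. HERV-Fc1 plus strand was lower at day 7 than at day 4 in non-targeting cells (-0.67 ± 0.20), a call lost in 6 of the 8 other settings and without 5 of the libraries. Of all features 2.86% were called lower in that comparison.

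A ratio of 2 features within a library needs no scaling. HERV3 was set beside HERVK with its own change known, so the ratio is a description with no test. The log2 ratio of HERVK minus strand to HERV3 minus strand counts was -2.79 ± 0.27 in SETDB1 sgRNA 9 cells and -0.82 ± 0.21 in non-targeting cells at day 7 (SD, n = 3 each). The ratio was lower in all 3 SETDB1 libraries, by a log2 difference of -1.97. At day 4 the ratio was -2.13 ± 0.13 in SETDB1 and -1.12 ± 0.17 in non-targeting cells (SD, n = 3 each), a difference of -1.01. The log2 ratio of HERVK to the summed counts of the 6 other retroviral models was also compared between the arms. It differed by -0.18 at day 7 (exact permutation p = 0.6) and -0.07 at day 4 (exact permutation p = 0.2). The lowest p that 3 against 3 libraries can give is 0.1, so this test could not pass. The sum includes HERV3, so this ratio is likewise a description.

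**Figure D4:**
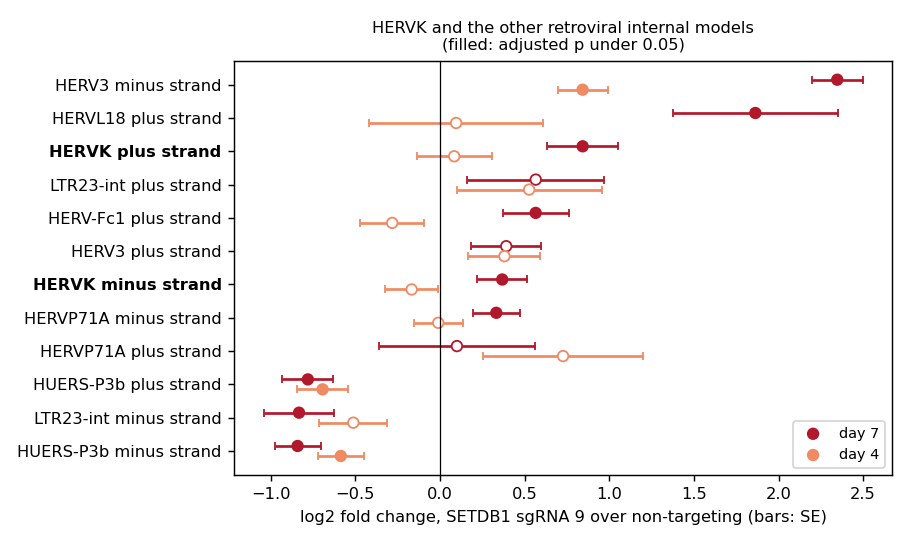
Log2 fold change of SETDB1 sgRNA 9 over non-targeting cells (horizontal axis, bars SE) for the strands of HERVK (bold) and of the other retroviral internal models tested, at day 7 (dark) and day 4 (light); filled points have an adjusted p under 0.05. HERVK plus strand stands at 0.84 at day 7, below HERV3 minus strand (2.35) and HERVL18 plus strand (1.86).

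The features whose levels followed HERVK most closely over the 12 libraries differed between its strands. For the plus strand they were HERVL18 plus strand (Pearson 0.90, Spearman 0.84), SATR1 plus strand, a satellite repeat (0.83 and 0.85), and HERV3 minus strand (0.82 and 0.62). All 3 were called higher at day 7, beside 30.0% of all features. They were picked for following HERVK plus strand, which was itself highest in SETDB1 sgRNA 9 cells at day 7. Their calls were thus largely fixed by the choice and are no separate support. SATR1 plus strand changed by 0.75 ± 0.26 (log2, SE). Its call was lost with no filter, when only day 7 libraries were fitted and without 4 of the single libraries. For the minus strand the closest features, picked the same way, were HERVP71A minus strand (0.75 and 0.74), L1MA8_3end minus strand, the 3′ end model of a LINE L1 (0.69 and 0.57), and THE1C plus strand, the long terminal repeat of a class III element (0.68 and 0.62). L1MA8_3end minus strand averaged 12414 ± 346 CPM in SETDB1 sgRNA 9 cells and 9032 ± 972 CPM in non-targeting cells at day 7 (SD, n = 3 each), and THE1C plus strand averaged 27031 ± 1541 and 22547 ± 2310 CPM, a difference that did not pass (0.26 ± 0.12, edgeR adjusted p = 0.0644). Over the 68 features of other elements the Pearson correlation had a median of 0.12 with the plus strand and -0.04 with the minus strand. These correlations are descriptions over libraries that share their scaling and their groups.

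**Figure D5:**
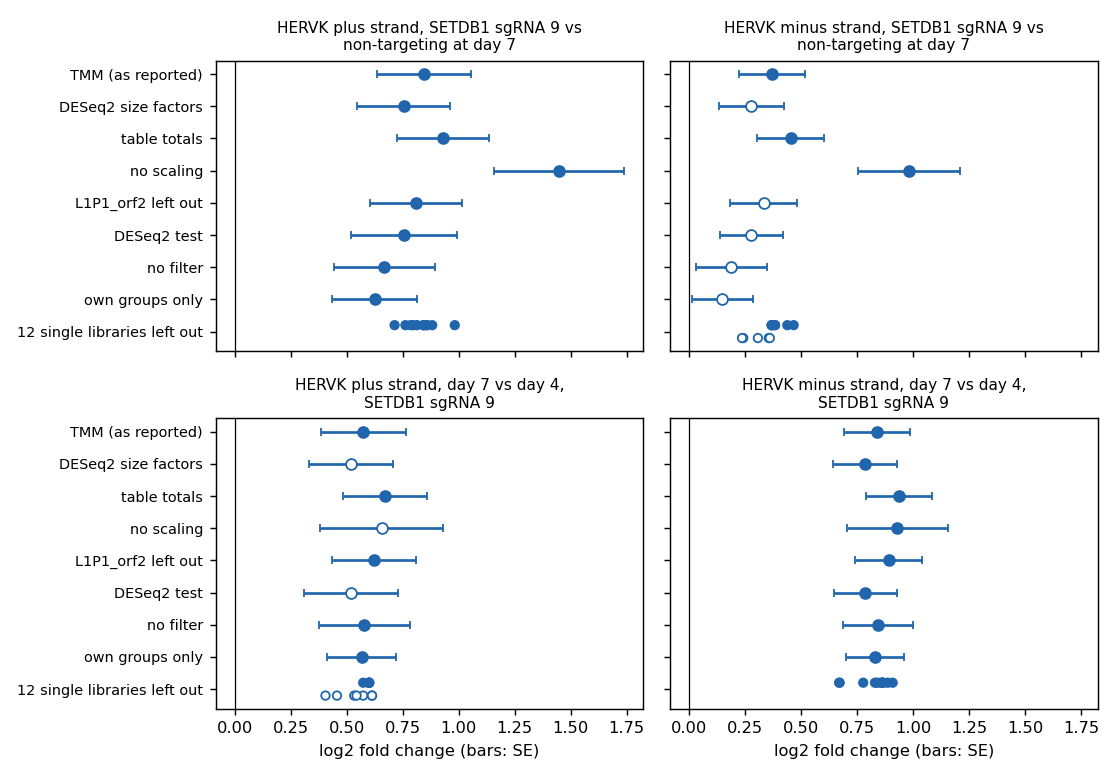
Log2 fold change of HERVK (horizontal axes, bars SE) under TMM scaling and 7 other settings, with the 12 fits that leave out 1 library as separate points in the lowest row, for both strands in SETDB1 sgRNA 9 against non-targeting cells at day 7 (top) and day 7 against day 4 in SETDB1 sgRNA 9 cells (bottom). Filled points have an adjusted p under 0.05: all are filled for the plus strand at day 7 and for the minus strand between the days.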

How the data were processed

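Per the labels' protocols, THP-1 cells were spin-transduced with sgRNAs and selected with puromycin, and libraries were made with a strand-specific kit from 100 ng of total RNA. The authors deposited raw counts for each strand of each repeat element, unnormalised, with a table for each day. The tools listed per the submitters' processing notes are CASAVA 1.8, BWA and HTSeq, with no role stated. The sources used here do not give the genome build, the repeat models, why 45 elements were chosen, how reads mapping to several places were treated, or what plus and minus mean. HERVK copies share sequence with each other and with related models, so its counts are uncertain to that extent. All 24 count columns matched a sample by the description in the header.

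edgeR 4.0.16 in R 4.3.3 fitted all 12 libraries in 4 groups with quasi-likelihood tests (8 residual df; the biological variation coefficient was 11.4%). Features were kept by filterByExpr (minimum count 10, minimum total 15), library sizes were the table totals with TMM factors, and the Benjamini-Hochberg adjustment ran over all 70 features, at a threshold of 0.05. The strand test used the strands of a library as 2 columns with a block for the library, over 41 elements. Single values were compared by two-sided exact permutation. Alternatives used DESeq2 1.42.0 and limma 3.58.1 (pseudocount 0.5 on strand ratios). The tests were tried on simulated data. HERVK, the lists and the rules for named features were chosen with earlier results of these data known: both strands of HERVK, the other retroviral internal models past the threshold, and the 3 features per strand with the highest Pearson correlation of log2 CPM (prior count 2).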

Additional observations from a re-analysis of the deposited data

Results flagged for a closer look

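HERV3 minus strand, reported beside HERVK, had an effect of SETDB1 sgRNA 9 that differed between the days, larger at day 7 than at day 4 by 1.504 on the log2 scale (edgeR interaction test, adjusted p = 1.76e-06). For HERVK the same test did not pass with TMM scaling and passed with table totals for plus (0.96), minus (0.73) and summed strands (0.76). Whether HERVK and HERV3 differ in this was not tested. Groups of 3 libraries are too small for a test of single libraries that stand apart, and each column of the tables was used.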

How the results depend on the processing

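The fitted HERVK changes were recomputed under 7 or 8 other settings and without each library, the minus strand share under 3 or 4 settings and the share of the table without L1P1_orf2; the ratios to other retroviral models and the correlations were not recomputed. Over other settings 117 values kept direction and side of the threshold, 10 lost the call, 8 gained it and 3 changed sign. With single libraries left out, 234 kept both, 12 lost the call, 3 gained it and 3 changed sign. These tallies include comparisons that were never called and fits without a library outside the comparison. They also include the share of the table, whose permutation p cannot fall below 0.1. The numbers kept are therefore no measure of how stable the calls are. Unscaled counts moved the median of all features to 0.65 at day 4 and 0.76 at day 7, so changes are read relative to that shift.

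The minus strand at day 7 did not pass with DESeq2 size factors (0.28), the DESeq2 test (0.28), L1P1_orf2 left out (0.33), no filter (0.19) or the day 7 libraries alone (0.15), and ranged from 0.24 to 0.47 without single libraries. The plus strand between the days in SETDB1 sgRNA 9 cells did not pass with DESeq2 size factors (0.52), the DESeq2 test (0.52) or unscaled counts (0.66), and ranged from 0.40 to 0.61 without single libraries. At day 4 unscaled counts gave 0.70 on the plus strand, which passed, 0.45 on the minus strand and 0.51 for both summed, and table totals gave -0.026 on the plus strand. Without single libraries the day 4 plus strand ranged from -0.10 to 0.26 and the summed strands from -0.28 to 0.0014. Table totals made the interaction pass on the plus strand (0.96), the minus strand (0.73) and both summed (0.76). The summed strands at day 7 passed with L1P1_orf2 left out (0.44), table totals (0.54), unscaled counts (1.07) and the day 7 libraries alone (0.38), with 0.20 to 0.53 without single libraries. The interaction of the minus strand share ranged from -0.42 to 0.10 without single libraries. HUERS-P3b minus strand at day 4 was 0.026 in unscaled counts. The causes were not tested. The interaction uses all 12 libraries, so a fit of its own groups is the same fit and was not repeated.

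Replicate numbers do not pair the libraries: same-numbered libraries had correlations of deviations from -0.13 to 0.13 between the arms at day 4, -0.08 to 0.28 at day 7, and from -0.31 to -0.20 and 0.01 to 0.16 between the days in SETDB1 and non-targeting cells. With a replicate block the minus strand at day 7 was 0.37 (adjusted p = 0.0517) and the plus strand between the days 0.57 (adjusted p = 0.0697), neither passing; no other HERVK call changed. In none of the 4 pairings did every library correlate best with its own number.

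Calls over all features changed by more than 1.5 times at day 4 (17) to 35 in unscaled counts and 10 with the day 4 libraries alone or without SETDB1 sgRNA 9 day 4 replicate 3; in the interaction (4) to between 7 and 10 in 5 settings and 8 or 9 without non-targeting day 4 replicate 2 or SETDB1 sgRNA 9 day 4 replicate 1; between days in SETDB1 sgRNA 9 cells (9) to 24 without non-targeting day 4 replicate 2; and in non-targeting cells (4) to between 0 and 2 in unscaled counts, with the replicate block and without any of their 6 libraries.

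Depth limits the plus strand most, with 20 to 84 counts per library.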
